A study of Mus musculus with 28 samples.

Results

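A set of 10 genes that build the actin core of the hair cell (HC) stereocilium, its root and its tip were followed through every induced combination of the transcription factors (TFs) Atoh1, Gfi1 and Pou4f3 in mouse embryonic stem cells (mESCs). They were chosen by name, with earlier results of these data known. They include the actin crosslinkers Espn, Espnl, Fscn2 and Triobp and the motors Myo15, Myo3a and Myo3b. The others are the tip proteins Eps8 and Eps8l2 and the extracellular linker Strc. All 10 were found among the 19421 genes of the expression matrix, and all 10 passed the filter on low values that left 16837 genes for testing. RNA-seq libraries came from 7 lines made from the A2loxCre parental line, in which doxycycline (Dox) switches on a cassette that holds Atoh1 alone (iAtoh1), Gfi1 alone (iGfi1), Pou4f3 alone (iPou4f3), the pairs Gfi1 with Atoh1 (iG+A), Gfi1 with Pou4f3 (iG+P) and Pou4f3 with Atoh1 (iP+A), or all 3 factors (iGPA). Each cassette also carries the mVenus reporter, and the combined cassettes join their factors with self-cleaving 2A peptides. Embryoid bodies (EBs) were given 2 µg/ml Dox at day 4 and collected 48 h later at day 6, beside EBs of the same line that received none (No Dox), with 2 libraries for each of the 14 groups, the replicates being different clones of a line. RNA of the Dox groups came from mVenus+ cells isolated by cell sorting, whereas RNA of the No Dox groups came from whole, unsorted EBs, so the effect of a cassette and the effect of sorting cannot be told apart within a line. In bulk RNA, fewer cells of a type and less RNA per cell cannot be told apart either.

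Stereocilia are stiff, actin-filled protrusions on the apical face of the HC, arranged in rows of graded height, and sound or head movement deflects them to open the mechanotransduction channels. Their parallel actin filaments are crosslinked along the shaft and packed into a dense rootlet at the base, while unconventional myosins carry elongation and capping factors to the tips, where stereocilium length is set. Loss of most of these proteins leaves short, fused or degenerating bundles and causes deafness in mice or humans.

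The genes lie on 7 mouse chromosomes in the mm9 build (NCBIM37), with Espn at chr4:151494440-151526480 on the minus strand, Espnl at chr1:93218652-93244880 on the plus strand, Fscn2 at chr11:120222848-120229482 on the plus strand and Triobp at chr15:78778154-78836299 on the plus strand. The motors lie on the plus strand, Myo15 at chr11:60282841-60341871, Myo3a at chr2:22149130-22473772 and Myo3b at chr2:69877183-70267255. Eps8 lies at chr6:137425766-137603397 on the minus strand, Eps8l2 at chr7:148524779-148548919 on the plus strand and Strc at chr2:121189464-121212904 on the minus strand. In the GENCODE M1 annotation, Strc overlaps the coding gene Ckmt1, Eps8l2 the long noncoding RNA B230206H07Rik, and Myo3a 4 pseudogenes, all on the opposite strand, and Myo3b overlaps the noncoding transcript Gm13631 on its own strand, so part of the signal of these 4 genes could come from a neighbour.

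The 250 bases before the annotated starts of 4 genes with called changes are shown because Atoh1 binds E-boxes, whose general form is CANNTG. These sequences are from RefSeq (GRCm38.p6), were placed in NCBIM37 by an exact match, and are written 5′ to 3′ on the strand of the gene with every E-box on either strand in capitals. Espn has 3 RefSeq starts, of which the most upstream (chr4:151526499-151526748, minus strand) and the most downstream (chr4:151503035-151503284, minus strand, inside the gene) are given. Beside them stand Espnl (chr1:93218402-93218651, plus strand), Myo15 (chr11:60282591-60282840, plus strand) and Myo3b (chr2:69876933-69877182, plus strand).
Espn upstream start: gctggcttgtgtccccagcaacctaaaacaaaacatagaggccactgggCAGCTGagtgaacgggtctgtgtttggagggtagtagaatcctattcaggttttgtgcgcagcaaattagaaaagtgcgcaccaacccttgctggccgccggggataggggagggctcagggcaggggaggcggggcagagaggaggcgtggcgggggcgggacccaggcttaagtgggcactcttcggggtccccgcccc
Espn downstream start: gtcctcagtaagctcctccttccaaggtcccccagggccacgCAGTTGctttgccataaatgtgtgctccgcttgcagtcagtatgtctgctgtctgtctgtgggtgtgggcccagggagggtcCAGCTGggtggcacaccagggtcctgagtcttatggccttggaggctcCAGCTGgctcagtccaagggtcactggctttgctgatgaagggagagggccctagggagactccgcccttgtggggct
Espnl: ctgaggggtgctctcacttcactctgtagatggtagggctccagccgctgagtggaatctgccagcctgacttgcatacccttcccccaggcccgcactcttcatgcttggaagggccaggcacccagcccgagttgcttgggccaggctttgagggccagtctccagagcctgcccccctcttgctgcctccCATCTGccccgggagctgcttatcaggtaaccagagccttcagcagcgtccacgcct
Myo15: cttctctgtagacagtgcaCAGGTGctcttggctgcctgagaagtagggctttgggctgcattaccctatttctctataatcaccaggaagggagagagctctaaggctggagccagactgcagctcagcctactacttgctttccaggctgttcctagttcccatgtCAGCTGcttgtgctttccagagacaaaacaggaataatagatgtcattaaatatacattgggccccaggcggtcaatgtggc
Myo3b: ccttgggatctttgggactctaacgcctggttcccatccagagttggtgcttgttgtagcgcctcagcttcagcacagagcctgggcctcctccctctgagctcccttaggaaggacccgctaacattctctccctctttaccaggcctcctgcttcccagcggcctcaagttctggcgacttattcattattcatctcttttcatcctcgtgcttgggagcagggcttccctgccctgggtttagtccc

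The downstream Espn start held 3 E-boxes, 2 of them of the CAGCTG form, and the upstream start held 1, also CAGCTG, while the third Espn start (chr4:151510435-151510684, minus strand) held none. The form CAGCTG also occurred once before Myo15. Neither Myo3b nor Myo3a nor Fscn2 held an E-box in this window, and Eps8l2 held 2 (CAGGTG and CAGTTG). An E-box occurred in 66.2% of 32851 RefSeq promoters of this length and CAGCTG in 13%, so a match is common and describes only the letters of the window. TAATTA, an AT-rich letter pattern that many homeodomain proteins can bind, was found in the third Espn window alone among the members and in 4.84% of all promoters, and AATC, the core of the Gfi1 motif, in 69% of them and in Espnl, Strc, Espn (upstream start), Myo15 and Fscn2. RefSeq promoters were at hand for 9 of the 10 genes, Eps8 being the exception.

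Levels are given as normalized counts, that is, kallisto abundance estimates summarised per gene and normalized between libraries, and are not whole reads. Sequencing depth, estimated from the spacing of the lowest values, was about 30.3 to 48 M counts per library, with a median of 39.2 M, and between 17628 and 18074 genes were above 0. The cassettes checked the labels, as Atoh1 lay between 12816 and 21242 in the 8 Dox libraries with its transgene against 14.3 to 32.5 in the 6 Dox libraries without it, Gfi1 between 8119 and 12487 against 49.7 to 113, and Pou4f3 between 4694 and 19883 against 27.7 to 101. Pou4f3 was lowest in iPou4f3 (4694 and 5381) and higher in iP+A (12878 and 10868), iGPA (13037 and 15115) and iG+P (17590 and 19883), so the comparisons of iG+P and iP+A with iPou4f3 differ in the level of Pou4f3 as well as in the factor added, and the part of that level in the member values was not tested. A change with Dox was called where limma gave a Benjamini-Hochberg adjusted p under 0.05 and a log2 fold change of at least 1.5 on the scale of log2(normalized count + 1), which understates changes of genes with few counts.

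Of 70 member effects (10 genes in 7 lines), 14 were called up and 1 down. No member was called in iAtoh1 cells, where 2.89% of all tested genes were called up and 2.52% down. In iGfi1 cells 1 member rose (Myo15; background 2.15% up), and in iPou4f3 cells 1 rose (Myo3b; background 1.47%). Among the pairs, 5 members rose in iG+P cells (Espn, Espnl, Myo15, Myo3b and Eps8l2; background 5.16%), 3 rose in iP+A cells (Espnl, Myo3b and Strc; background 4.7%), and in iG+A cells Espn rose and Myo15 fell (background 7.35% up and 4.95% down). In iGPA cells 3 rose (Espn, Myo3b and Eps8l2; background 8.65%). No member fell in these other lines, where 2.67% of all tested genes (iGfi1), 0.606% (iPou4f3), 5.36% (iG+P), 2.58% (iP+A) and 5.31% (iGPA) were called down. The median log2 fold change over the 10 members was 1.09 in iG+P cells, 0.63 in iP+A cells and 0.31 in iGPA cells. It was 0.27 for iGfi1, 0.13 for iPou4f3, -0.16 for iAtoh1 and -0.25 for iG+A, where the median of all tested genes lay between -0.03 and 0.02. Of the 15 calls, 10 were kept in each of the alternative analyses and with each library left out.

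**Figure D1:**
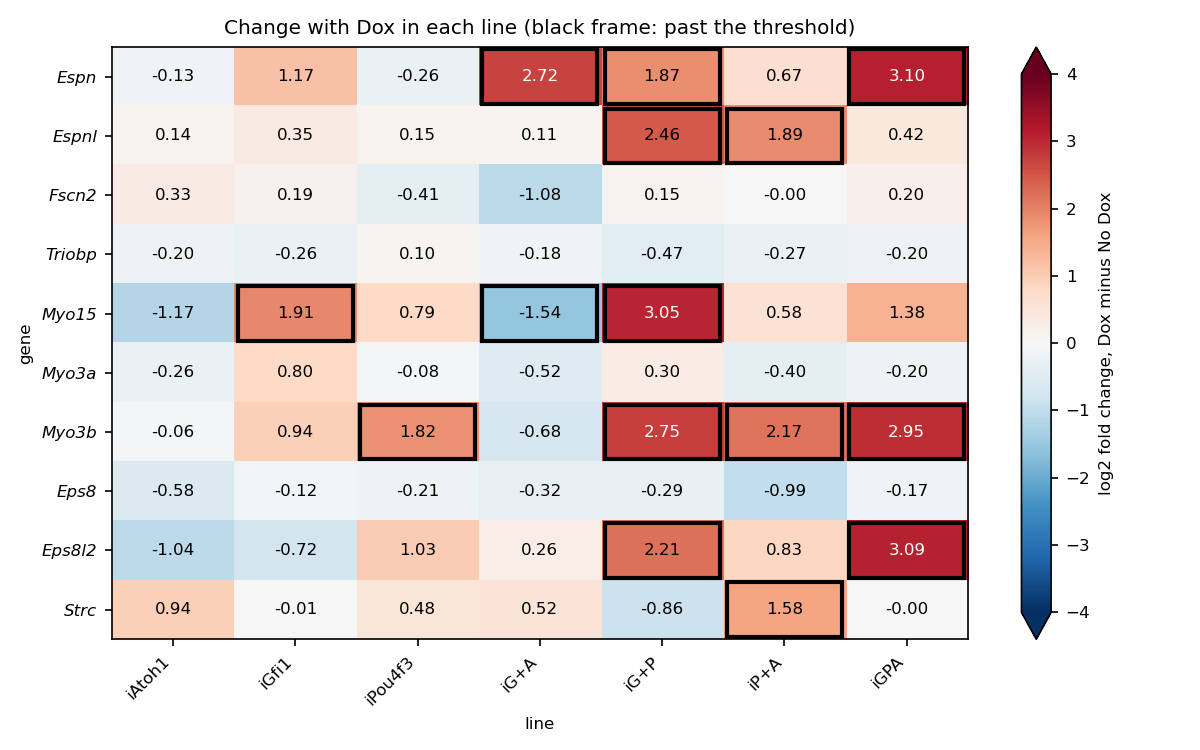
Log2 fold change of each gene (rows) between Dox and No Dox in each line (columns), from the limma fit on log2(normalized count + 1), red higher and blue lower with Dox; black frames mark the 15 effects past the threshold. Frames gather in iG+P, with 5, and Myo3b is framed in the 4 lines that carry Pou4f3.

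Espn encodes espin, the main crosslinker of the stereocilium core, and it was highest in the lines that combine Gfi1 with another factor. In iGPA cells it went from 285 and 188 normalized counts without Dox to 2033 and 1951 with Dox, a log2 fold change of 3.10 ± 0.35 (SE; adjusted p = 1.23e-06, limma). The iG+A libraries moved from 212 and 407 to 1816 and 2067 (2.72 ± 0.35, adjusted p = 8.39e-06). Dox and No Dox libraries were far apart in both lines. In iG+P cells Espn went from 446 and 551 to 2332 and 1421 (1.87 ± 0.35, adjusted p = 4.19e-04). The iGfi1 libraries went from 404 and 335 to 760 and 909, and this did not overlap either, but at 1.17 the log2 change was under the fold threshold (adjusted p = 0.0198). Without the Gfi1 cassette, Espn was at 737 and 378 against 622 and 376 with Dox in iAtoh1, 268 and 321 against 191 and 312 in iPou4f3, and 461 and 656 against 915 and 841 in iP+A, where the log2 difference of 0.67 was not called (adjusted p = 0.179). Ordered by level, Dox libraries of iGPA, iG+A and iG+P overlapped at the top with means of 1992 ± 58.1, 1941 ± 178 and 1876 ± 644 (SD, n = 2), iP+A and iGfi1 overlapped in the middle, and iAtoh1 and iPou4f3 were lowest.

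Adding Gfi1 to a cassette was tested as the difference between 2 Dox effects, each against the No Dox libraries of its own line. The Espn effect was larger with Gfi1 in all 3 such comparisons, by 2.84 ± 0.50 on the log2 scale for iG+A against iAtoh1 (adjusted p = 7.28e-04), 2.14 ± 0.50 for iG+P against iPou4f3 (adjusted p = 0.00606) and 2.42 ± 0.50 for iGPA against iP+A (adjusted p = 0.00244). Members called among these comparisons numbered 1, 3 and 2 of 10, against 6.87%, 7.63% and 7.6% of all tested genes. The iGPA against iP+A value fell to 1.18 (adjusted p = 0.0583) when the 14 untreated libraries served as one control, the No Dox libraries of iGPA being lower than those of iP+A. Adding Pou4f3 gave Espn differences of 0.80, 0.70 and 0.38, none of them called, the 95% confidence interval of the last running from -0.67 to 1.43. The effect in iG+A exceeded that in iGfi1 by 1.54 (adjusted p = 0.0290), a call that was lost without iGfi1 No Dox replicate 1 (1.41, adjusted p = 0.0957), iGfi1 Dox replicate 1 (1.42, adjusted p = 0.0964), iG+A No Dox replicate 1 (1.08, adjusted p = 0.158) or iG+A Dox replicate 2 (1.45, adjusted p = 0.0721). Quantile normalization (1.45, under the fold threshold) and the control of all untreated libraries (1.22, adjusted p = 0.0564) ended it as well. The other Atoh1 differences for Espn were not called, at 1.22 for iGPA against iG+P (adjusted p = 0.110) and 0.93 for iP+A against iPou4f3 (adjusted p = 0.413), the latter becoming a call at 1.84 with all untreated libraries as control (adjusted p = 0.00872).

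**Figure D2:**
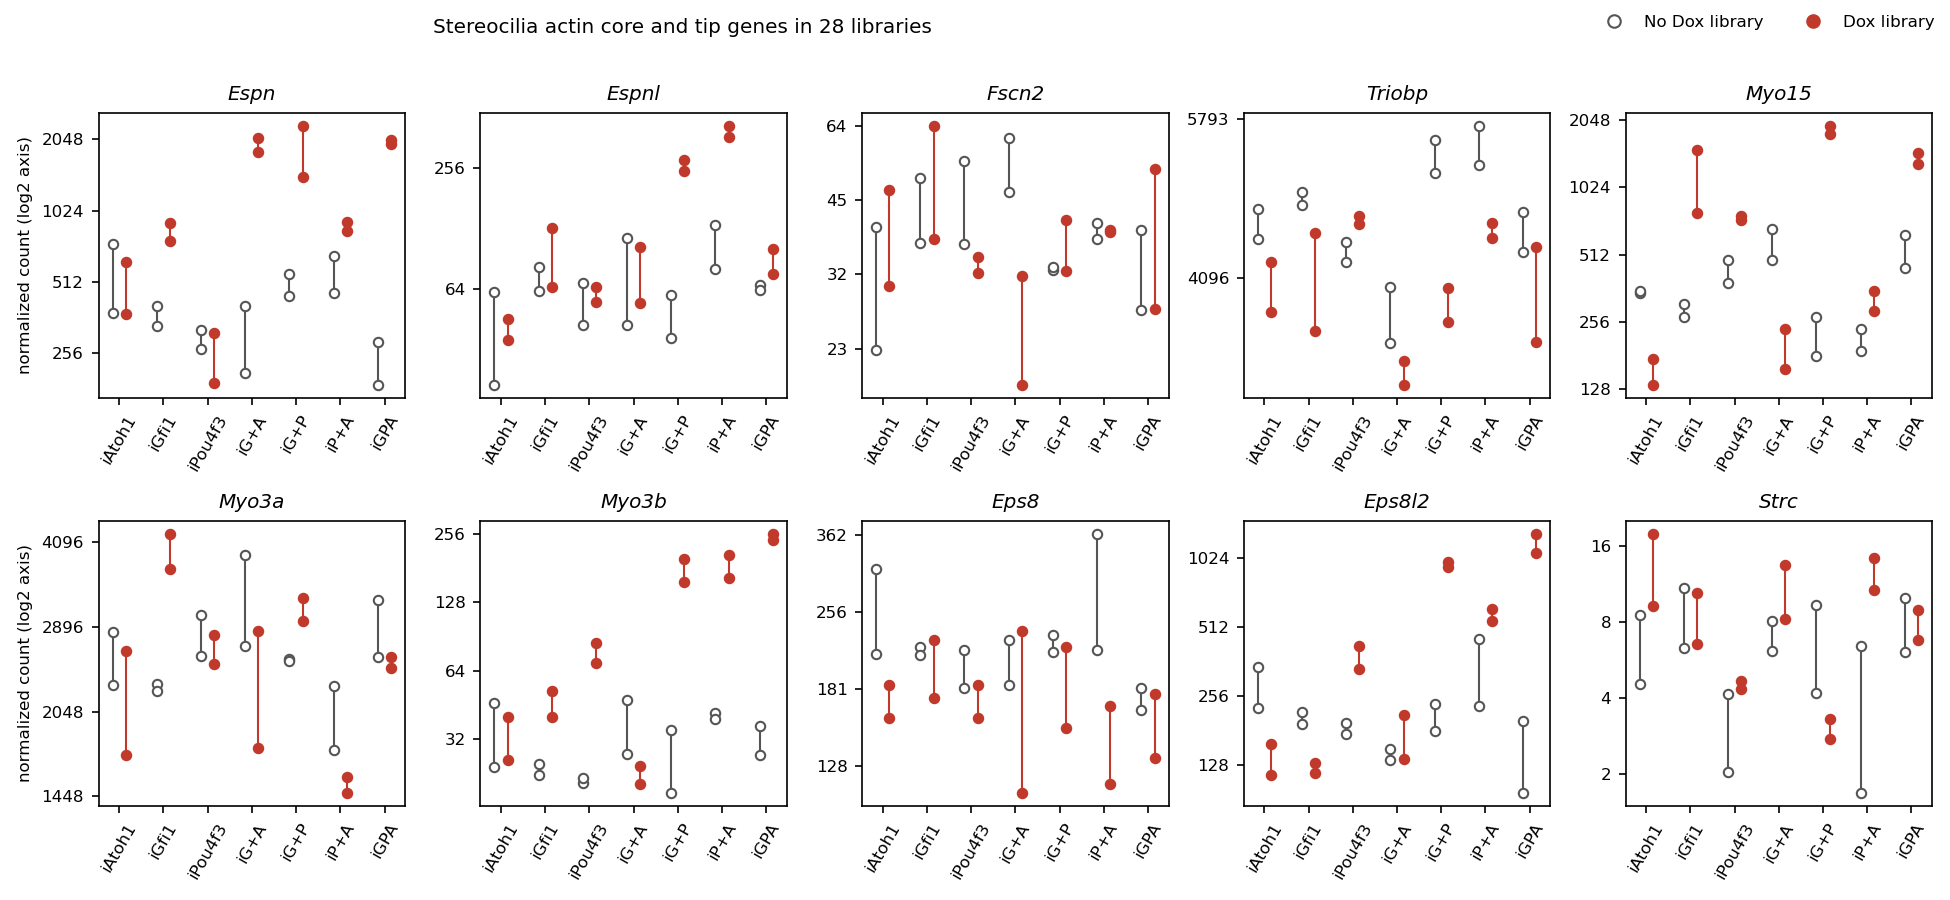
Normalized counts (log2 axis, a separate range in each panel) of the 10 genes in all 28 libraries, by line; open grey circles are the 2 No Dox libraries, filled red circles the 2 Dox libraries, and lines join the 2 libraries of a group. Red and grey circles are widely separated for Espn in iG+A and iGPA, for Eps8l2 in iG+P and iGPA, and for Myo3b in the lines with Pou4f3, while those of Fscn2 and Eps8 lie close together or overlap.

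Espnl, a relative of espin that associates with class III myosins, followed another order. It went from 36.8 and 60.1 to 282 and 247 in iG+P cells (2.46 ± 0.50, adjusted p = 7.52e-04). In iP+A cells it went from 133 and 80.9 to 415 and 363 (1.89 ± 0.50, adjusted p = 0.00904). The iP+A call was lost without No Dox replicate 2 (1.54, adjusted p = 0.0941) or without Dox replicate 1 (1.80, adjusted p = 0.0674) of that line. In iGPA cells, which hold the factors of both of these pairs, Espnl was at 67.3 and 63.9 without Dox and at 101 and 76.7 with it (0.42 ± 0.50, adjusted p = 0.516). The iGPA effect was lower than that of iG+P by 2.04 on the log2 scale and missed the threshold (adjusted p = 0.0557), but was called with the replicate number as a block (adjusted p = 0.0377) and also without any 1 of the 4 iG+A libraries, either iAtoh1 No Dox library or iGfi1 Dox replicate 1 (adjusted p between 0.0338 and 0.0498), as it was with a pseudocount of 5, quantile normalization or only these groups in the fit (adjusted p = 0.0476, 0.0392 and 0.0202). Against iP+A the difference was -1.47 (95% confidence interval -2.94 to 0.0012, adjusted p = 0.157), and it was called at -2.13 with all untreated libraries as control (adjusted p = 0.00500). Adding Gfi1 to Pou4f3 raised the Espnl effect by 2.31 (adjusted p = 0.0281), which was lost when any of iPou4f3 No Dox replicate 1, iPou4f3 Dox replicate 1 or 2, iG+P No Dox replicate 1 or iG+P Dox replicate 1 or 2 was left out (1.97 to 2.44, adjusted p from 0.0501 to 0.123), and with quantile normalization (adjusted p = 0.0536). Adding Pou4f3 or Atoh1 to form iP+A gave differences of 1.75 (against iAtoh1, adjusted p = 0.183) and 1.74 (against iPou4f3, adjusted p = 0.235), not called, and both became calls with all untreated libraries as control (3.23, adjusted p = 2.46e-04, and 2.67, adjusted p = 0.00169). Adding Pou4f3 to Gfi1 gave 2.11 (adjusted p = 0.111), not called. In the other lines the Espnl log2 fold change lay between 0.11 and 0.35.

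Fscn2, the fascin that stabilizes mature stereocilia, and Triobp, which bundles the filaments of the rootlet, were not called in any line. Fscn2 lay between 19.1 and 63.9 in the 28 libraries, with a median of 37.7, and its log2 fold changes ran from -1.08 in iG+A (60.3 and 47.1 without Dox, 19.1 and 31.7 with Dox, adjusted p = 0.0311) to 0.33. Triobp was the most abundant member per length, at a median of 646 normalized counts per kb of its longest transcript in the 14 untreated libraries. Levels are summed per gene, so they do not show which Triobp transcripts were present. Its log2 fold changes ran from -0.47 to 0.10, and in iG+P the difference was small but beyond the spread (5536 and 5149 against 3722 and 4006, adjusted p = 0.00187).

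Myo15, known today as Myo15a, encodes the motor that delivers whirlin and Eps8 to the stereocilium tip, and it was the only member with calls in both directions. It was highest in iG+P cells, where it went from 181 and 269 to 1764 and 1921 (3.05 ± 0.28, adjusted p = 1.53e-07). Gfi1 alone took it from 307 and 270 to 1493 and 787 (1.91 ± 0.28, adjusted p = 9.24e-05), although without Dox replicate 1 the log2 change was 1.45 and under the fold threshold. The 2 groups did not overlap in either line. In iG+A cells it went the other way, from 669 and 483 to 159 and 238 (-1.54 ± 0.28, adjusted p = 2.42e-04). That call was lost without No Dox replicate 1 (-1.31) or Dox replicate 1 (-1.25) of iG+A, and at -0.83 (adjusted p = 0.0603) when all untreated libraries were the control. The iAtoh1 libraries showed a change of like sign under the fold threshold, from 345 and 351 to 176 and 134 (-1.17, adjusted p = 0.00507). In iGPA cells Myo15 was at 445 and 625 without Dox and at 1296 and 1454 with it, and the log2 change of 1.38 (adjusted p = 5.13e-04) became a call at 1.62 without No Dox replicate 2 and at 1.98 against all untreated libraries. It was at 483 and 384 against 758 and 731 in iPou4f3 (0.79, adjusted p = 0.122), and at 190 and 239 against 354 and 287 in iP+A (0.58, adjusted p = 0.139).

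Adding Atoh1 to Gfi1, with or without Pou4f3, gave negative differences for Myo15. The effect in iG+A was lower than in iGfi1 (log2 difference -3.45 ± 0.39, adjusted p = 1.37e-05; -2.47 with all untreated libraries as control), and the effect in iGPA was lower than in iG+P (-1.68 ± 0.39, adjusted p = 0.00729). Blood markers were lower in the same comparisons. For iG+A against iGfi1, 6 of 8 were called (median -3.25), and for iGPA against iG+P 5 of 8 (median -2.12). In iP+A against iPou4f3, where the Myo15 difference was -0.21, blood markers were also lower (2 of 8 called, median -1.635). Their part in the Myo15 values was not tested. Members called in the Atoh1 comparisons were 3 for iG+A against iGfi1 (background 8.54%), 1 for iGPA against iG+P (5.9%) and none for iP+A against iPou4f3 (1.61%), where the Myo15 difference was -0.21 (95% confidence interval -1.03 to 0.61). The iGPA against iG+P call was lost without iG+P No Dox replicate 1 (-1.39, under the fold threshold) or iGPA No Dox replicate 2 (-1.43, adjusted p = 0.0514), and with all untreated libraries as control the value was -0.42 (adjusted p = 0.598). Adding Pou4f3 to Gfi1 and Atoh1 raised the Myo15 effect by 2.92 ± 0.39 (adjusted p = 1.83e-04), and adding it to Atoh1 by 1.75 ± 0.39 (adjusted p = 0.0109). The latter was lost without iAtoh1 Dox replicate 2 (1.56, adjusted p = 0.0588), iP+A No Dox replicate 1 (1.59, adjusted p = 0.0537) or iP+A Dox replicate 1 (1.6, adjusted p = 0.0615), and with all untreated libraries as control (1.05, adjusted p = 0.161). The Pou4f3 difference for iG+P against iGfi1 was 1.14 (adjusted p = 0.125), not called; it was 0.68 without iGfi1 Dox replicate 2 and became a call without iGfi1 Dox replicate 1 (adjusted p = 0.0265). Adding Gfi1 to Pou4f3 raised it by 2.27 ± 0.39 (adjusted p = 0.0006), a call lost with that control (1.31, adjusted p = 0.0502). The other Gfi1 differences for Myo15 were not called, at -0.37 for iG+A against iAtoh1 (adjusted p = 0.590) and 0.80 for iGPA against iP+A (adjusted p = 0.170), the latter becoming a call at 2.10 with that control.

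The class III myosins differed from each other. Both carry espins towards the tip, and Myo3b rose in each line with Pou4f3 while Myo3a was called in none. Myo3b went from 36.4 and 27.0 to 257 and 241 in iGPA (2.95 ± 0.35, adjusted p = 2.24e-06). The iG+P libraries went from 34.8 and 18.4 to 157 and 199 (2.75 ± 0.35, adjusted p = 7.99e-06). These groups were well apart. It went from 41.4 and 39.2 to 207 and 164 in iP+A (2.17 ± 0.35, adjusted p = 1.88e-04). With Pou4f3 alone it went from 20.3 and 21.4 to 69.1 and 84.3 (1.82 ± 0.35, adjusted p = 0.00436). The iPou4f3 call was lost without Dox replicate 2 (1.68, adjusted p = 0.0593), with only the iPou4f3 groups in the fit (adjusted p = 0.0732) and at 1.35 with all untreated libraries as control. Without the Pou4f3 cassette Myo3b was at 24.1 and 46.2 against 39.8 and 25.8 with Dox in iAtoh1, at 22.2 and 24.6 against 52.2 and 40.02 in iGfi1 (0.94, adjusted p = 0.0577), and at 47.2 and 27.4 against 20.2 and 24.2 in iG+A. The 8 Dox libraries with Pou4f3 (69.1 to 257, from 4 lines) lay above the 6 without it (20.2 to 52.2, from 3 lines) with no overlap. The share of all tested genes that separate in this way was not counted, so this only describes Myo3b.

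Of the 3 comparisons that add Pou4f3, Myo3b was called in those of iGPA against iG+A (3.62 ± 0.50, adjusted p = 2.35e-04) and iP+A against iAtoh1 (2.22 ± 0.50, adjusted p = 0.0113), and it narrowly missed for iG+P against iGfi1 (1.81 ± 0.50, adjusted p = 0.0524). Members called in them numbered 3, 3 and 1, against 2.2%, 2.78% and 1.85% of all tested genes. The iP+A against iAtoh1 call was lost without iAtoh1 No Dox replicate 2 (1.77, adjusted p = 0.0587), iAtoh1 Dox replicate 2 (1.92, adjusted p = 0.0660) or iP+A Dox replicate 1 (2.06, adjusted p = 0.0633) and with only these groups in the fit (adjusted p = 0.105), while iG+P against iGfi1 became a call without either iAtoh1 No Dox library, either iG+A No Dox library or iG+P No Dox replicate 1 (adjusted p between 0.0319 and 0.0427), and also with a pseudocount of 5, a filter of 50, no variance trend or all untreated libraries as control. Adding Atoh1 to Gfi1 lowered the Myo3b effect by a log2 difference of -1.61 (adjusted p = 0.0233), and this was lost without iGfi1 No Dox replicate 1, iGfi1 Dox replicate 1, iG+A No Dox replicate 1 or iG+A Dox replicate 1 (-1.23 to -1.54, adjusted p from 0.0667 to 0.119), and with a pseudocount of 5 (-1.44), only these groups in the fit (adjusted p = 0.0812) or all untreated libraries as control (-1.01). The other Atoh1 differences for Myo3b were above 0 and not called, at 0.20 for iGPA against iG+P (adjusted p = 0.842) and 0.34 for iP+A against iPou4f3 (adjusted p = 0.832). Those that add Gfi1 were not called either, at -0.62, 0.93 and 0.78 for iG+A, iG+P and iGPA (adjusted p = 0.452, 0.222 and 0.303). Myo3a lay between 1468 and 4236 in the 28 libraries. Its highest log2 fold change, 0.80 in iGfi1 (2292 and 2229 against 3673 and 4236, adjusted p = 0.0115), was under the fold threshold, and its lowest was -0.52 in iG+A. The difference between these lines was -1.33 (iG+A against iGfi1, adjusted p = 0.00461), under the fold threshold, and was called without iG+A No Dox replicate 2 (-1.59) or iG+A Dox replicate 1 (-1.67).

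**Figure D3:**
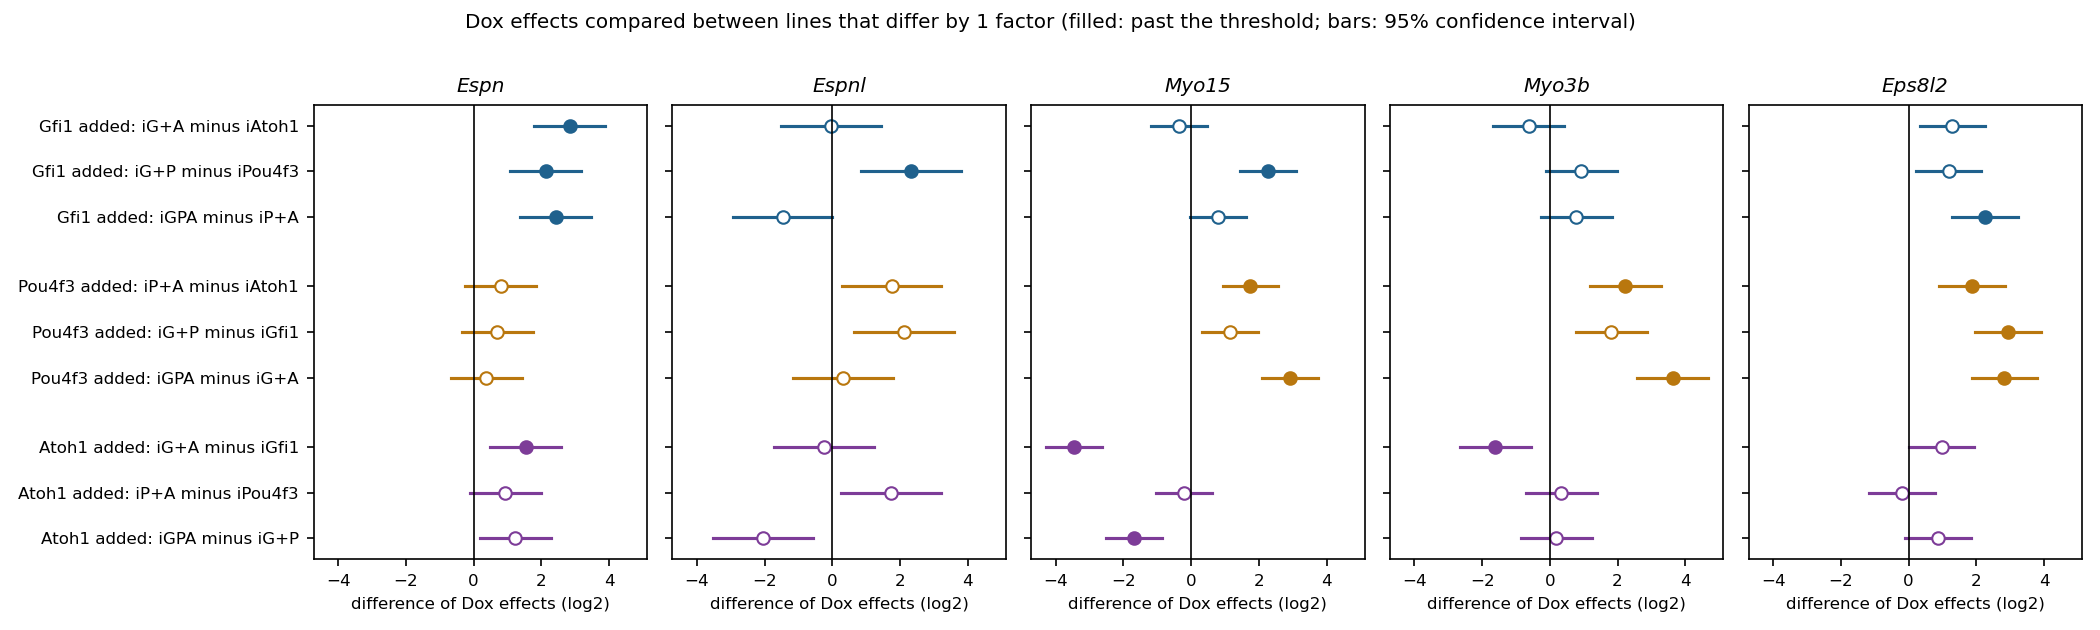
Difference of Dox effects on the log2 scale (horizontal axis) between lines that differ by 1 factor, for the 5 genes called in most lines or comparisons; points are limma estimates, bars 95% confidence intervals, filled points are past the threshold, and colours mark the factor added. For Espn all 3 Gfi1 points are filled and on the right, for Eps8l2 all 3 Pou4f3 points, and for Myo15 the Atoh1 points of iG+A minus iGfi1 and iGPA minus iG+P are filled on the left.

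Eps8l2, which with its relative Eps8 caps and bundles actin at the tip and maintains the taller stereocilia, rose where Gfi1 and Pou4f3 were both induced. It went from 198 and 96.3 to 1073 and 1302 in iGPA (3.09 ± 0.33, adjusted p = 4.95e-07). The iG+P libraries went from 179 and 236 to 978 and 936 (2.21 ± 0.33, adjusted p = 3.71e-05). The groups were far apart. With Pou4f3 but not Gfi1 the differences were not called, at 174 and 194 against 336 and 420 in iPou4f3 (1.03, adjusted p = 0.0810) and 230 and 453 against 610 and 542 in iP+A (0.83, adjusted p = 0.0706), the latter becoming a call at 1.51 with all untreated libraries as control. Without Pou4f3 it was at 343 and 227 against 158 and 115 in iAtoh1 (-1.04, adjusted p = 0.0277), 192 and 218 against 118 and 130 in iGfi1 (-0.72, adjusted p = 0.113), and 135 and 149 against 212 and 135 in iG+A (0.26, adjusted p = 0.560). Dox libraries with Pou4f3 (336 to 1302, 8 libraries of 4 lines) and without it (115 to 212, 6 libraries of 3 lines) did not overlap. For this rule too, the share of all tested genes was not counted.

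Adding Pou4f3 raised the Eps8l2 effect by 2.93 ± 0.46 for iG+P against iGfi1 (adjusted p = 9.15e-04), by 2.83 ± 0.46 for iGPA against iG+A (adjusted p = 0.00101) and by 1.87 ± 0.46 for iP+A against iAtoh1 (adjusted p = 0.0210). The last was lost without iAtoh1 No Dox replicate 1, iAtoh1 Dox replicate 2, iP+A No Dox replicate 1 or iP+A Dox replicate 1 or 2 (1.39 to 1.96, adjusted p from 0.0514 to 0.117), and with only these groups in the fit (adjusted p = 0.129). Adding Gfi1 raised it by 2.25 ± 0.46 for iGPA against iP+A (adjusted p = 0.00233), which was 1.04 (adjusted p = 0.0736) with all untreated libraries as control. The Gfi1 differences of 1.30 for iG+A against iAtoh1 and 1.18 for iG+P against iPou4f3 were not called (adjusted p = 0.0652 and 0.0859), the first becoming a call without iAtoh1 No Dox replicate 2 (1.59, adjusted p = 0.0441) or iG+A Dox replicate 2 (1.62, adjusted p = 0.0427). The Atoh1 differences for Eps8l2 were 0.98, 0.87 and -0.20 for iG+A, iGPA and iP+A (adjusted p = 0.126, 0.224 and 0.905). Eps8, which Myo15 carries to the tips, lay between 114 and 364 in all libraries. Its log2 fold change was below 0 in all 7 lines, from -0.99 in iP+A (216 and 364 against 118 and 168, adjusted p = 0.0272) to -0.12 in iGfi1, and was called in none.

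Strc encodes stereocilin, an extracellular protein that joins neighbouring stereocilia near their tips and links them to the tectorial membrane. It was barely detected, between 1.68 and 17.9 normalized counts in all libraries, where 1 read was worth an estimated 0.816 to 1.22. Its only call was in iP+A (6.45 and 1.68 against 14.4 and 10.7, 1.58 ± 0.54, adjusted p = 0.0376). That call was lost without iP+A No Dox replicate 2 (0.85, adjusted p = 0.383), Dox replicate 1 (1.39, adjusted p = 0.199) or Dox replicate 2 (1.78, adjusted p = 0.0823), and with a pseudocount of 5 (under the fold threshold), only the iP+A groups in the fit (adjusted p = 0.158) or all untreated libraries as control (adjusted p = 0.0789). In iGPA cells Strc was at 9.93 and 6.11 without Dox and at 6.78 and 8.96 with it.

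Dox effects of combined cassettes were also compared with the sum of the effects of their single-factor lines on the log2 scale. Each Dox effect sets sorted cells against whole EBs, so sorting enters the combined effect once but the sum 2 times for a pair and 3 times for iGPA, and a departure from the sum cannot be told apart from sorting. Some marker lists departed too. The median departure in iGPA was 2.86 for 8 visceral endoderm and 2.64 for 8 epithelial markers, and just below that for 8 pluripotency markers. In iG+A it was 1.52 for epithelial, 1.32 for visceral endoderm and 0.51 for pluripotency markers. No marker of these lists was called. The medians of all tested genes were 0.0065 in iGPA and 0.04 in iG+A. Other lists had medians in iGPA and iG+A of -0.43 and -0.0018 (fibroblast and mesenchyme) and 0.68 and -0.03 (blood). They were 0.76 and -0.803 for neuronal markers and 0.74 and 0.54 for HC genes. Tubb3 was called below its sum in both lines, Ptprq below and Lhx3 above in iGPA, and Insm1 above in iG+A. The values below are given with the limit that sorting sets. The number of members past the threshold was 2 in iG+A (background 2.99%), 1 in iGPA (2.65%) and none in iG+P (0.208%) or iP+A (0.422%). Eps8l2 in iGPA exceeded the sum of iAtoh1, iGfi1 and iPou4f3 by 3.82 ± 0.65 (adjusted p = 0.00353), a sum that includes -1.04 in iAtoh1 and -0.72 in iGfi1. In iG+A its own effect was 0.26 (adjusted p = 0.560), and the excess of 2.02 ± 0.57 over the sum (adjusted p = 0.0400) came from these same negative values, a call kept in only 17 of the 28 fits with 1 library left out and lost without any 1 of the 4 iGfi1 libraries, either iAtoh1 Dox library, iAtoh1 No Dox replicate 1, either replicate 1 library of iG+A or either iP+A Dox library. It was lost too with quantile normalization, no variance trend or only these lines in the fit (adjusted p = 0.0514, 0.0535 and 0.0777). Myo15 in iG+A lay below its sum (-2.28 ± 0.48, adjusted p = 0.0102), which was lost with only these lines in the fit (adjusted p = 0.0696). Espn lay above its sum by 1.67 in iG+A and 2.31 in iGPA, missing the threshold (adjusted p = 0.102 and 0.0754), and both were called with the replicate number as a block (adjusted p = 0.0341 and 0.0232). Both also became calls without iAtoh1 No Dox replicate 2 (2.15 and 2.79, adjusted p = 0.0477 and 0.0289), and the iG+A value without iG+A No Dox replicate 2 (2.14, adjusted p = 0.0346).

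A further list of 22 hair bundle actin genes was read in the same fit, of which 21 were tested, Eps8l3 being too low. The single-factor lines had 1 call each, all upward (Baiap2l2 for iAtoh1, Clic5 for iGfi1, Grxcr2 for iPou4f3). Called up were 5 genes in iGPA (Whrn, Twf2, Grxcr2, Baiap2l2 and Clic5), 4 in iG+P (Twf2, Grxcr2, Clic5 and Elmod1), 2 in iP+A (Grxcr2 and Elmod1) and 1 in iG+A (Clic5), and Pls3 was called down in both iG+A and iGPA. Of all tested genes, 8.65% were called up in iGPA, 5.16% in iG+P, 4.7% in iP+A, 7.35% in iG+A and 1.47% to 2.89% in the single-factor lines, and 4.95% and 5.31% were called down in iG+A and iGPA. Nothing about the list is read from a count of 1 of 21, and enrichment was not tested. Grxcr2, needed for stereocilium growth and shape, rose in the same 4 lines as Myo3b. It was at 0 to 2.04 normalized counts in the 14 untreated libraries and with Dox at 22.2 and 24.5 in iPou4f3, 48.1 and 75.9 in iG+P, 16.3 and 13.5 in iP+A and 32.8 and 60.6 in iGPA. It stayed at or below 2.04 in all other libraries. Grxcr2 thus passed the filter on low values only through the groups where it is high. Its calls, which are among the counts above, are therefore a description and no p is given. Elmod1 lay between 0 and 8.73 in the untreated libraries and reached the 10 counts of the filter only with Dox. These libraries were both of iP+A (23.6 and 21.6), both of iPou4f3 (15.96 and 10.11), and Dox replicate 2 of iG+P (11.94) and iAtoh1 (10.49). The Elmod1 calls in iG+P and iP+A, also among the counts above, are likewise a description. Clic5, which with radixin stabilizes the base of the bundle, rose in the 4 lines with Gfi1, with log2 fold changes of 1.69 (iGfi1, adjusted p = 0.00664), 1.94 (iG+A, 0.00134), 2.72 (iG+P, 6.59e-05) and 3.11 (iGPA, 9.74e-06). Its untreated libraries in these lines lay between 47.6 and 133 normalized counts, and its Dox libraries between 188 (iGfi1) and 1051 (iG+P). In iPou4f3, without Gfi1, Clic5 went from 56.4 and 73.7 to 130 and 193 (1.28, adjusted p = 0.0964), not called. The difference with Gfi1 added was called for Clic5 in iG+A against iAtoh1 and in iGPA against iP+A. It was not called in iG+P against iPou4f3. Neither of the 2 tested fascin paralogs, Fscn1 and Fscn3, nor Eps8l1 was called in any line, and the cytoplasmic actins Actb and Actg1 had log2 fold changes between -0.60 and -0.09.

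**Figure D4:**
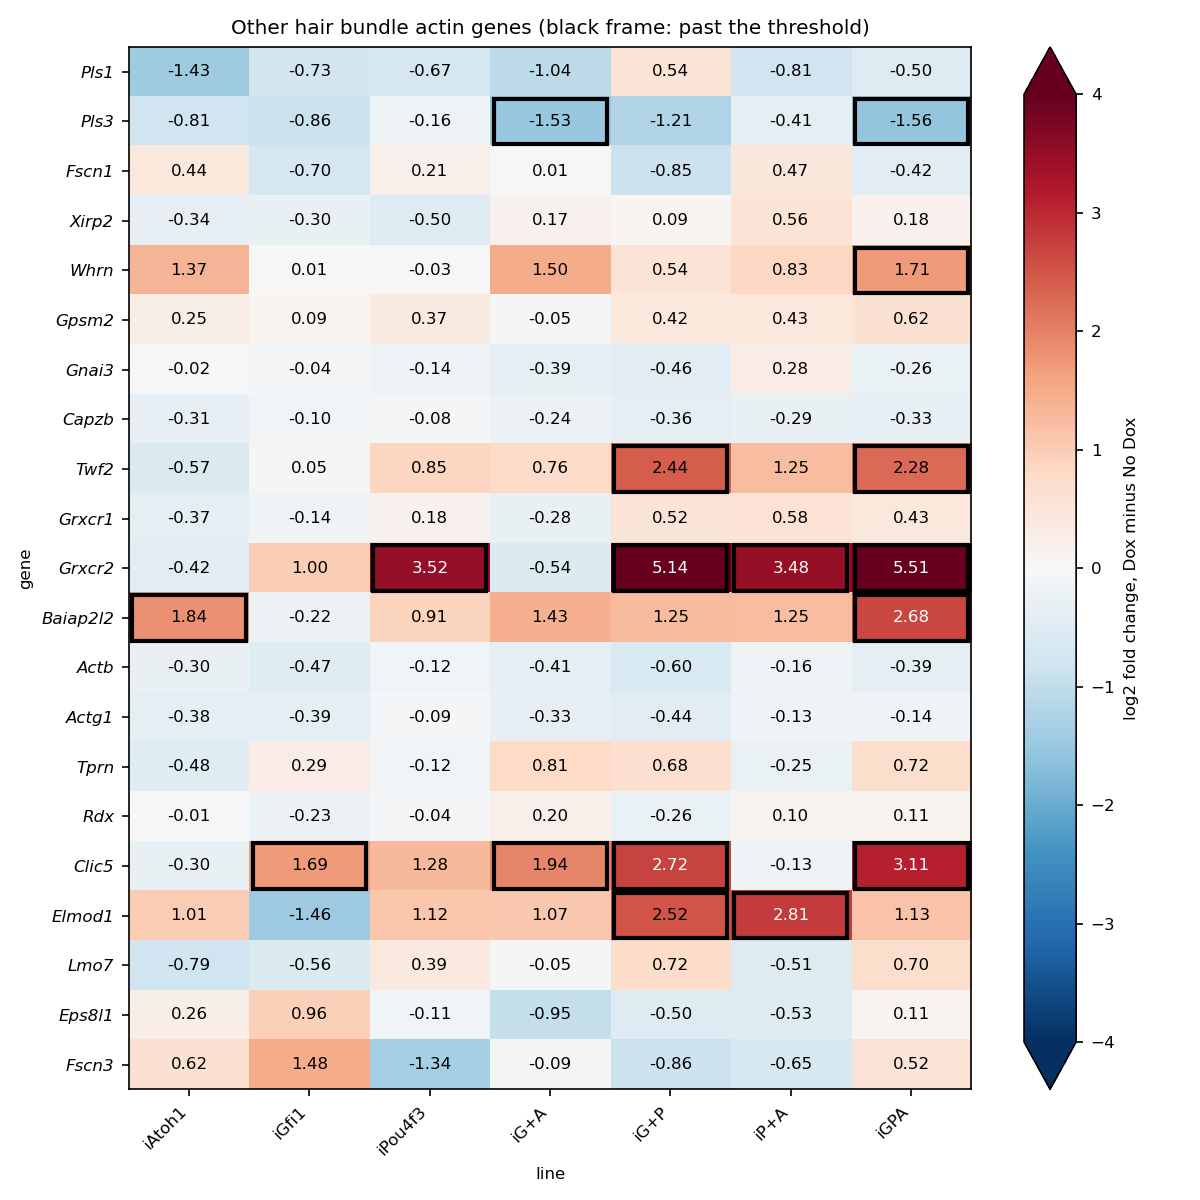
Log2 fold change with Dox (colour and number) of 21 further hair bundle actin genes (rows) in the 7 lines (columns), from the same limma fit; black frames mark effects past the threshold. Grxcr2 is framed in the 4 lines with Pou4f3 and Clic5 in the 4 lines with Gfi1.

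Markers of cell types moved with Dox in the same libraries, and their part in the member values was not tested. Of 14 HC genes, 8 rose in iG+P, 8 in iGPA, 7 in iG+A, 5 in iP+A and 4 in iPou4f3. In iAtoh1 and iGfi1 1 each rose, and none fell in any line. The 8 of iG+P included Tmc1 and Ptprq, and those of iGPA had Myo6 and Lhx3 in their place. The shares of all tested genes called up ran from 1.47% (iPou4f3) to 8.65% (iGPA) and those called down from 0.606% (iPou4f3) to 5.36% (iG+P), and enrichment of the marker lists was not tested. All 8 neuronal markers rose in iP+A and 7 in iGPA, against 4 in iAtoh1, 3 in iG+A, 2 each in iPou4f3 and iG+P and none in iGfi1, and their summed level was 399 to 1310 in No Dox libraries, 17300 to 23323 with Dox in iP+A and 7356 to 7418 in iGPA. Of 8 epithelial markers none rose. In iGfi1 and iG+A 4 each fell, in iAtoh1 and iG+P 3 each, in iGPA 2, and in iPou4f3 and iP+A none. The 4 genes differed in part between iGfi1 and iG+A, as did the 3 between iAtoh1 and iG+P. The summed level of all 8 went from 26227 and 32625 to 6831 and 7535 in iGPA. In iG+P it went from 35094 and 35712 to 9376 and 12017. Fibroblast and mesenchyme markers (8) with a called decrease numbered 3, 2, 0, 5, 4, 1 and 7 genes in iAtoh1, iGfi1, iPou4f3, iG+A, iG+P, iP+A and iGPA, blood markers (8) 5, 0, 0, 5, 1, 5 and 4, pluripotency markers (8) 0, 0, 0, 4, 2, 6 and 4, and visceral endoderm markers (8) 3, 2, 1, 3, 4, 1 and 3. The summed ranges in No Dox and Dox libraries were 50034 to 165420 and 8214 to 122565 for fibroblast and mesenchyme, 70652 to 494842 and 14095 to 378058 for blood, 831 to 22581 and 655 to 4389 for pluripotency, 580 to 4474 and 247 to 1082 for visceral endoderm, and 14702 to 72566 and 21934 to 78430 for HC genes. None of these markers was at 0 in both libraries of any group.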

How the data were processed

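The data were 28 RNA-seq libraries, 2 per group. The deposited matrix held log2(normalized count + 1) values per Entrez gene: per the labels and the study's methods, the authors trimmed reads with cutadapt, quantified them with kallisto on mm9 transcripts, summarised them per gene with tximport and normalized them with DESeq2. Versions were not given in the sources used here. Values were whole multiples of 1 read in only 71.2 to 79.4% of values up to 20 (tolerance 0.05), so counts were not recovered and no count test was run. Genes were named from RefSeq (19314 of 19421). After a filter of 10 normalized counts, reached in 2 or more libraries, 16837 genes were fitted with limma 3.58.1 in R 4.3.3 over 14 groups (14 residual degrees of freedom, variance trend), with Benjamini-Hochberg adjustment within each contrast, two-sided. Contrasts were 7 Dox effects, 9 differences of Dox effects and 4 departures from sums; contrasts that share a line share libraries. The members and all lists, markers and named genes (members; others called in at least 3 lines in 1 direction; fascin and Eps8 paralogs) were chosen with earlier results of these data known. Replicates of a line were different clones; whether a number is the same clone with and without Dox is not stated in the sources used here. Libraries of equal number deviated together in each line (correlations 0.103 to 0.246, the lowest just over the 0.1 required), and on that basis the numbers were taken as pairs for the block. Alternatives were other pseudocounts, filters, scalings, variance models, controls, fold thresholds and fits, and each library left out.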

Additional observations from a re-analysis of the deposited data

Results flagged for a closer look

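Of 90 differences of Dox effects between lines that differ by 1 factor, 17 passed the limma test of the difference itself, 14 higher and 3 lower with the factor added, where between 1.61% and 8.54% of all tested genes were called in each of the 9 comparisons, and they are given here as log2 differences. Adding Gfi1 raised the Espn effect by 2.84 (to Atoh1), 2.14 (to Pou4f3) and 2.42 (to Pou4f3 with Atoh1), the Espnl effect by 2.31 and the Myo15 effect by 2.27 (both to Pou4f3), and the Eps8l2 effect by 2.25 (to Pou4f3 with Atoh1). Adding Pou4f3 raised the Eps8l2 effect by 1.87 (to Atoh1), 2.93 (to Gfi1) and 2.83 (to Gfi1 with Atoh1), the Myo15 effect by 1.75 (to Atoh1) and 2.92 (to Gfi1 with Atoh1), and the Myo3b effect by 2.22 (to Atoh1) and 3.62 (to Gfi1 with Atoh1). Adding Atoh1 to Gfi1 raised the Espn effect by 1.54 and changed those of Myo15 by -3.45 and Myo3b by -1.61, and adding it to Gfi1 with Pou4f3 changed that of Myo15 by -1.68. With 2 libraries per group, no library could be tested as an outlier.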

How the results depend on the processing

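Of the 15 member effects called with Dox, 10 kept their call in each alternative and with each library left out, and no called value changed sign; of 2653 recomputed Dox values, 51 that were not called did so. Given here is the number of members called wherever it moved by more than 1.5 times. At a log2 threshold of 1, 2 fell in iAtoh1, 2 rose in iGfi1 and 2 fell in iG+A, where 4.25%, 3.9% and 7.97% of all tested genes did so. With only the groups compared in the fit, 0 rose in iPou4f3, 1 differed between iP+A and iAtoh1, 2 between iGPA and iG+P, and 0 departed from the sum in iG+A. With all untreated libraries as control, 0 rose in iPou4f3 and 0 fell in iG+A, and 2 differed between iG+P and iGfi1, 1 between iG+A and iGfi1, 2 between iP+A and iPou4f3 and 0 between iGPA and iG+P. Under that control the count for iGPA against iP+A stayed at 2 but the genes did not, as Espn and Eps8l2 were lost while Espnl (-2.13, adjusted p = 0.00500) and Myo15 (2.10, adjusted p = 0.00157) were gained; Espnl was also gained for iP+A against iAtoh1 (3.23), and Myo15 for Dox in iGPA (1.98). The difference between iG+P and iGfi1 counted 2 with a pseudocount of 5, a filter of 50 normalized counts or no variance trend, and that between iGPA and iG+P counted 2 with a pseudocount of 5 or quantile normalization. The iG+A departure from the sum counted 1 with quantile normalization or no trend. The replicate block changed 3 of 104 single values, so that 2 members differed between iGPA and iG+P and, with Espn added, 2 departed from the sum in iGPA and 3 in iG+A, and it changed no other call. With 1 library left out, the range was 0 to 1 up in iGfi1 and in iPou4f3, 0 to 1 down in iG+A, 1 to 3 up in iP+A and 3 to 4 up in iGPA. For the differences it was 1 to 3 (iG+A against iAtoh1), 2 to 3 (iG+P against iPou4f3, and iGPA against iP+A), 0 to 3 (iP+A against iAtoh1), 1 to 2 (iG+P against iGfi1), 1 to 4 (iG+A against iGfi1) and 0 to 2 (iGPA against iG+P), and for departures from the sum 1 to 3 in iG+A and 1 to 2 in iGPA. Where a library is left out, the remaining library of its group is taken to vary like the other groups. With a filter of 50 normalized counts Strc was not tested. The cause of these changes was not tested. At 2 libraries per group and a standard error near 0.35 for Espn or Myo3b, smaller differences could not be resolved, and the level of Strc, 1.68 to 17.9 normalized counts, was low against the 0.816 to 1.22 that 1 read was estimated to be worth.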

Other observations

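Several members varied widely among the 14 untreated libraries, and differences between untreated lines were not tested. Espn ran from 188 to 737 normalized counts in the 14 untreated libraries (median 391), Myo15 from 181 to 669 (median 348), Eps8l2 from 96.3 to 453 (median 196) and Espnl from 21.5 to 133 (median 63.4). Per kb of the longest transcript, the untreated medians ran from 646 normalized counts for Triobp and 502 for Myo3a through 109 for Espn and 58.8 for Eps8l2 down to 4.34 for Myo3b and 1.08 for Strc. Against this range, both Dox libraries lay above all 14 untreated ones for Espn in iGfi1, iG+A, iG+P, iP+A and iGPA, for Myo15 in iGfi1, iPou4f3, iG+P and iGPA, for Eps8l2 in iG+P, iP+A and iGPA, for Espnl in iG+P and iP+A, and for Myo3b in the 4 lines with Pou4f3. Both Dox libraries lay below all 14 for Myo15 in iAtoh1, Myo3a in iP+A and Triobp in iG+A. Many genes lay outside this range: of all tested genes, the share above all 14 was highest for iGPA (21.5%), then iG+A (18.7%), iP+A (18.2%), iG+P (16.9%), iAtoh1 (13.3%), iGfi1 (10.4%) and iPou4f3 (6.57%), and the share below was between 3.95% (iPou4f3) and 19.1% (iGPA).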
